A study of Homo sapiens with 24 samples.

Results

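The TSC22 domain genes TSC22D1, TSC22D2, TSC22D3 and TSC22D4 were followed in Nalm6, a human B-cell precursor acute lymphoblastic leukemia (B-ALL) cell line. The members were chosen by symbol: 4 genes of the 27389 symbols in the count table, listed there as 17 of its 64519 RefSeq accessions. Lentiviral vectors delivered an shRNA to a non-specific sequence (shNS) or to G9a (shG9a), GLP (shGLP) or HP1γ (shHP1γ), and the cells were selected with puromycin as resistant populations rather than clones and given 100 nM dexamethasone (dex) or vehicle ethanol for 8 h. Each of the 8 conditions had 3 biological replicates prepared on different days, giving 24 RNA-seq libraries. The shNS cells with ethanol are the reference, and all 8 groups share the lentiviral vector and selection. The sources used here name a single shRNA construct for each depleted protein. The comparisons address whether the methyltransferases G9a and GLP and their partner HP1γ are needed for the mRNA levels reached after dex.

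TSC22 domain proteins share a short conserved domain followed by a leucine zipper, through which they form dimers. TSC22D3 encodes GILZ, the glucocorticoid-induced leucine zipper, a classical direct target of the glucocorticoid receptor in lymphoid cells. GILZ binds NF-κB, AP-1 and Ras/Raf proteins and restrains them, and takes part in the anti-inflammatory and growth-restraining actions of glucocorticoids. TSC22D1 was first described as a gene stimulated by transforming growth factor β (TGF-β). The long family proteins TSC22D1, TSC22D2 and TSC22D4 bind the pseudokinase NRBP1 and act with WNK kinases in the control of cell volume. G9a and GLP methylate histone H3 lysine 9 and other proteins, and HP1γ binds methyllysine.

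In GENCODE on GRCh37 (hg19, the build of the alignment), TSC22D1 lies on chromosome 13 from 45006279 to 45151283, TSC22D2 on chromosome 3 from 150126085 to 150184209, TSC22D3 on chromosome X from 106956451 to 107020572 and TSC22D4 on chromosome 7 from 100060982 to 100076855. TSC22D2 is on the forward strand and the other genes on the reverse strand. TSC22D3 transcripts begin at widely spaced first exons: TSC22D3-203, with a coding sequence of 200 codons, starts at 107019017, and TSC22D3-206, with 134 codons, starts at 106960365. The table of RefSeq promoters (250 bases before to 50 after a start site) holds 4 windows of TSC22D3, and each matched the GRCh37 chromosome X sequence exactly once. The table does not pair start sites with the accessions counted here.

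A distal and a proximal TSC22D3 start region are shown because TSC22D3 transcripts differ in their first exon. The distal window is chrX:107018968-107019267 and the proximal window chrX:106960243-106960542, both written 5′ to 3′ on the reverse strand. Capitals mark matches to the motifs searched.
TSC22D3 distal start region: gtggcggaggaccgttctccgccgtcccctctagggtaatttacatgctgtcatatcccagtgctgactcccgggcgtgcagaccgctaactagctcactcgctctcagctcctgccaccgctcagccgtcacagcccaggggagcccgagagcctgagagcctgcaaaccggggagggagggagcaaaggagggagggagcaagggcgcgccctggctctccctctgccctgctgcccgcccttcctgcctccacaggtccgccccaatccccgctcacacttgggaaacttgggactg
TSC22D3 proximal start region: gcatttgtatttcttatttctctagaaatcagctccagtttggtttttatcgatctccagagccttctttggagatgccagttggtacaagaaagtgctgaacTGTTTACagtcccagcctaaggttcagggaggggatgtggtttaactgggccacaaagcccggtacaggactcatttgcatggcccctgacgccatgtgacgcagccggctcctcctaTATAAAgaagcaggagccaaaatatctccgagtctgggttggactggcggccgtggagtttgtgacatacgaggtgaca

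The proximal window had 49.7% G+C and 9 CpG dinucleotides, against 65.7% and 17 in the distal window. In capitals, the proximal window holds the TATA box letters TATAAA, which begin 29 bases before the start site, and the forkhead letters GTAAACA on the opposite strand, which are found 147 bases before it. Both strands of all 35116 promoter windows were searched, and TATAAA was present in 11.5% and GTAAACA in 3.42% of them. The glucocorticoid receptor palindrome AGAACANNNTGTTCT and its looser form GNACANNNTGTNC, which contains every match of the first, matched none of the 4 TSC22D3 windows, and 0.00285% and 0.39% of all windows held them. The single arm AGAACA, found in 14.8% of all windows, was also absent from the 4 windows. In the 5000 bases upstream of each of the 4 start sites the looser palindrome had 0 matches and the single arm 5, and 6.19% of 20172 protein-coding genes had the looser palindrome in that distance. These letters describe the windows only and say nothing of where the receptor binds.

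Library totals ran from 9289533 to 14387770 counts with a median of 11132064.5, and no library duplicated another. Levels are given as normalized CPM (counts relative to the library total at a common scale, with totals adjusted by upper quartile factors), and 3 counts correspond to 0.216 to 0.317 CPM. The counting left many accessions that share exons at 0: of 2608 accessions of 399 well-counted genes listed with 4 or more accessions, 61.7% had no count in any library, and GAPDH, listed with 4 accessions, had 1121 counts over all libraries where PGK1, with a single accession, had 304972. Counts of a gene listed several times therefore cover only part of its reads, and tests compared levels between conditions only. Where the share of a gene's counts on an accession, or of a summed level on a gene, is given, it describes the counted reads and not the abundance of transcripts. The labelled cell type was checked on 10 precursor B-cell markers, of which 8 had counts and 4 were well counted (RAG1, IGLL1, MME and CD79A). CD79B and DNTT were at 0, and VPREB1, PAX5 and EBF1 were below 0.25 CPM on average. All of these were listed with several accessions, but so were IGLL1, MME and CD79A. The cause of the low counts was not tested. Of the targeted genes, the EHMT1 (GLP) accession NM_001354259 was 0.37 lower on the log2 scale in shGLP than in shNS cells with dex (SE 0.21, edgeR adjusted p = 0.41), and the CBX3 (HP1γ) accession NM_016587 was 0.61 lower in shHP1γ cells (SE 0.22, edgeR adjusted p = 0.142), neither past the threshold at this depth. EHMT2 (G9a) gave no test result here, so the depletion of G9a in shG9a cells was not checked on these counts.

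Of the 17 accessions of the family, 9 had a count in some library and 6 exceeded 1 CPM in 2 or more libraries, the condition for being tested. These were NM_004089, NM_001015881 and NM_198057 of TSC22D3, NM_006022 and NM_183422 of TSC22D1, and NM_030935 of TSC22D4. NM_001015881 and NM_198057 passed only through dex libraries, mainly those of shNS and shHP1γ cells. Higher values with dex and in those lines were therefore built into their passing, and no test is given for them. NM_001318468 and NM_001318470 of TSC22D3, NM_001243799 of TSC22D1, NM_001303264 and NM_014779 of TSC22D2, and NM_001303043, NR_130118 and NR_130119 of TSC22D4 were listed at 0 in all 24 libraries. NM_001243797 and NM_001243798 of TSC22D1 reached at most 2 and 1 counts in a library, and NR_130136 of TSC22D2 at most 8.

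TSC22D3 was the member that responded to dex. Its main accession NM_004089, the record of the best known GILZ mRNA, was low with ethanol and rose in all 4 lines, by 9.35-fold to 14.8-fold. In shNS cells it measured 8.93, 8.09 and 7.13 CPM with ethanol and 98.7, 86.7 and 81.3 CPM with dex in replicates 1, 2 and 3, so each dex library stood far above every ethanol library. The fitted rise was 11.1-fold, 3.47 on the log2 scale (SE 0.16, edgeR quasi-likelihood test with Benjamini-Hochberg adjustment, adjusted p = 2.72e-13). Of all accessions tested, 9.95% passed the threshold of an adjusted p of 0.05 for dex in shNS cells, 4.49% of them upward, with a median log2 fold change over all of -0.03. NM_004089 ranked 5 of 10167 by p-value in that comparison. In bulk RNA, more RNA per cell cannot be told apart from more cells expressing the gene.

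The same accession rose with dex in each depleted line. In shG9a cells it went from 4.09, 2.75 and 2.48 CPM with ethanol to 49.3, 51.7 and 35.9 CPM with dex, a log2 fold change of 3.89 (SE 0.19, edgeR adjusted p = 2.06e-12). In shGLP cells the ethanol values were 6.56, 6.64 and 3.12 CPM and the dex values 56.0, 56.3 and 39.5 CPM, a log2 fold change of 3.22 (SE 0.17, edgeR adjusted p = 2.16e-11). In shHP1γ cells ethanol gave 8.32, 7.03 and 5.07 CPM and dex 111.5, 59.9 and 56.3 CPM, a log2 fold change of 3.46 (SE 0.17, edgeR adjusted p = 1.81e-12). No dex library overlapped an ethanol library in any line. Of all accessions, 6.24%, 3.29% and 3.22% passed for dex in shG9a, shGLP and shHP1γ cells, and 3.26%, 1.95% and 2.12% were higher. Replicate 1 of the shHP1γ cells with dex stood apart, above all 3 shNS dex libraries, while the remaining replicates of that group were below all of them.

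**Figure D1:**
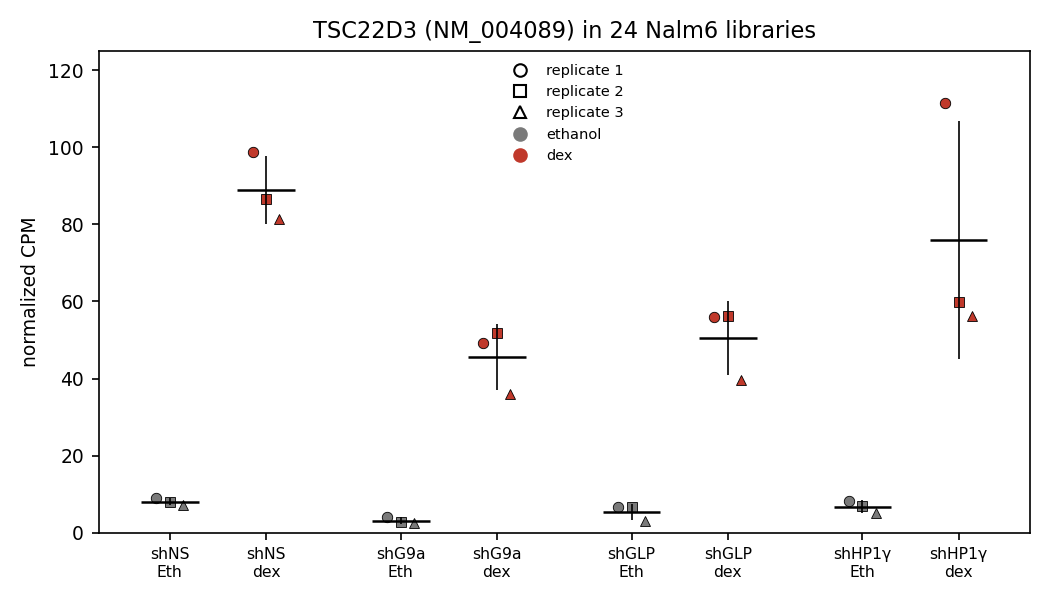
Normalized CPM of the TSC22D3 accession NM_004089 in each of the 24 libraries, with a point per replicate (shape) and the mean and SD of each group as lines (Eth, ethanol). Dex libraries lie between 35.9 and 111.5 CPM and ethanol libraries between 2.48 and 8.93 CPM. The shG9a and shGLP dex libraries all lie below the lowest shNS dex library, and replicate 1 of shHP1γ lies above the highest.

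In dex-treated cells, TSC22D3 NM_004089 was lower after G9a or GLP depletion. The group means were 88.9 ± 8.93 CPM in shNS, 75.9 ± 30.9 in shHP1γ, 50.6 ± 9.60 in shGLP and 45.6 ± 8.53 in shG9a cells (SD, n = 3 each). All 3 replicates were lower than their shNS partner in shG9a cells, where the level averaged 51.3% of shNS and the log2 fold change was -0.97 (SE 0.13, edgeR adjusted p = 4.30e-05). In shGLP cells the level averaged 56.7% of shNS in the same replicate and the log2 fold change was -0.83 (SE 0.13, edgeR adjusted p = 0.000215), again with 3 of 3 replicates lower. The shGLP call was lost with no replicate block (-0.81, edgeR adjusted p = 0.0538) and without replicate 3 (-0.72, edgeR adjusted p = 0.064). Of all accessions, 8.80%, 5.77% and 4.09% passed for shG9a, shGLP and shHP1γ against shNS with dex, and 4.43%, 2.46% and 1.54% were lower.

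The shHP1γ cells with dex did not pass, with a log2 fold change of -0.27 (SE 0.13, edgeR adjusted p = 0.308) and 2 of 3 replicates lower than shNS. The value in replicate 1 was 112.9% of its shNS partner, and the lowest replicate 69.1%. Without the shHP1γ dex library of replicate 1 the log2 fold change was -0.52 and passed (SE 0.12, edgeR adjusted p = 0.00971). It also passed without replicate 1 in all groups (-0.54, edgeR adjusted p = 0.0259). With all libraries kept it passed with no filter on low counts (-0.36, edgeR adjusted p = 0.0363), so the call for HP1γ depletion turned on 1 library and on the filter.

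Between the depleted lines with dex, NM_004089 was higher in shHP1γ than in shG9a cells (log2 difference 0.70, SE 0.13, edgeR adjusted p = 0.00211) and higher in shHP1γ than in shGLP cells (0.55, SE 0.13, edgeR adjusted p = 0.0153). Of all accessions, 6.43% and 4.02% passed in these comparisons. The shG9a and shGLP cells differed by -0.15 (SE 0.14, edgeR adjusted p = 0.567), with a 95% interval from -0.41 to 0.12, in a comparison that 8.62% of accessions passed. In the order of the dex levels, shHP1γ and shGLP differed past the threshold, while shNS and shHP1γ did not, and shGLP and shG9a did not. The shHP1γ and shGLP libraries still overlapped, with the lowest shHP1γ library at 56.25 CPM and the highest shGLP library at 56.28 CPM. Replicate 1 of shHP1γ stood apart at 111.5 CPM, and the comparisons between depleted lines were not refitted without it.

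Without dex the order of the means was the same. TSC22D3 NM_004089 averaged 8.05 ± 0.90 CPM in shNS, 6.81 ± 1.63 in shHP1γ, 5.44 ± 2.01 in shGLP and 3.11 ± 0.86 in shG9a cells (SD, n = 3 each). The shG9a libraries, with 30 to 42 counts each, averaged 38.2% of shNS, and the log2 fold change was -1.39 (SE 0.23, edgeR adjusted p = 0.000599). That call was lost without replicate 3 (-1.32, edgeR adjusted p = 0.0609). In shGLP cells the log2 fold change was -0.58 (SE 0.21, edgeR adjusted p = 0.164) and all 3 libraries lay below the lowest shNS library. It passed with no filter on low counts (edgeR adjusted p = 0.0101) and with 1 residual factor in place of the block (edgeR adjusted p = 0.0406). In shHP1γ cells it was -0.25 (SE 0.20, edgeR adjusted p = 0.637) and the groups overlapped. Of all accessions, 3.73%, 3.61% and 2.91% passed for the same 3 lines against shNS with ethanol.

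No neighbouring pair in the order of ethanol levels differed past the threshold. The pair nearest to it was shG9a against shGLP, with a log2 difference of -0.81 (SE 0.24, edgeR adjusted p = 0.0507). The shHP1γ cells exceeded the shG9a cells by 1.13 on the log2 scale (SE 0.24, edgeR adjusted p = 0.00431), and the shGLP cells by 0.32 (SE 0.22, edgeR adjusted p = 0.535). Of all accessions, 6.23%, 6.07% and 4.20% passed in these comparisons.

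**Figure D2:**
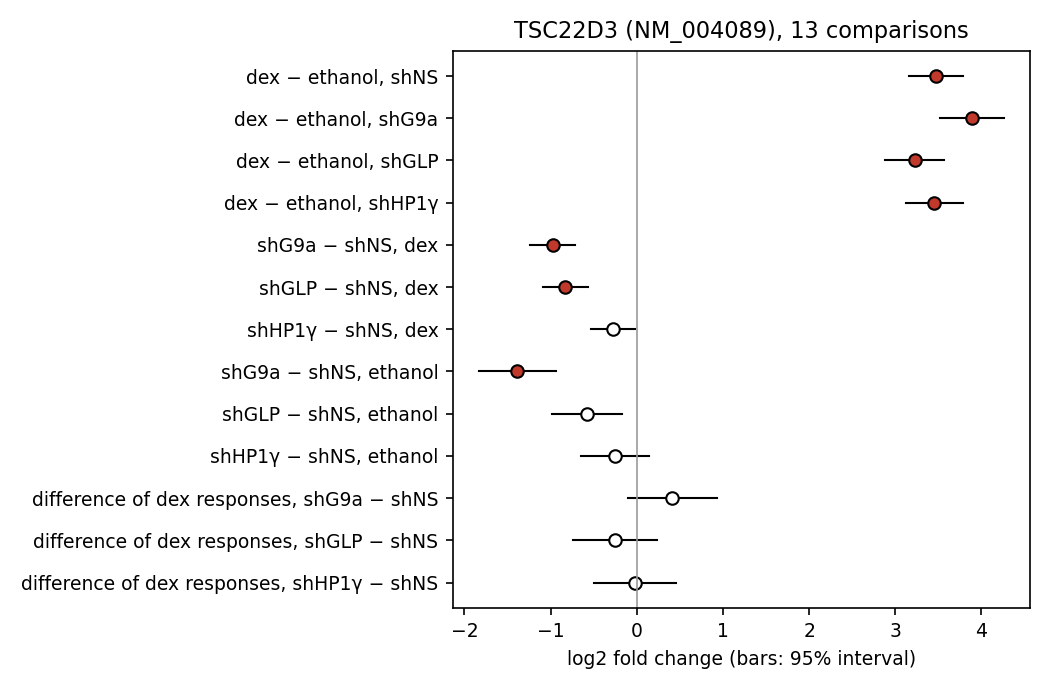
Log2 fold changes of the TSC22D3 accession NM_004089 in 13 comparisons, with 95% intervals as bars; filled points have an adjusted p of at most 0.05. The 4 dex responses lie between 3.22 and 3.89, the shG9a and shGLP differences with dex and the shG9a difference with ethanol are below 0, and the 3 differences between dex responses have bars that cross 0.

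The fold induction and the rise in level gave different pictures of the depleted lines. The difference of dex responses on the log2 scale (the interaction of dex with depletion) was 0.41 for shG9a against shNS (SE 0.26, edgeR adjusted p = 0.774), -0.25 for shGLP (SE 0.25, edgeR adjusted p = 1) and -0.02 for shHP1γ (SE 0.24, edgeR adjusted p = 1). The 95% intervals ran from -0.11 to 0.93, from -0.74 to 0.24 and from -0.50 to 0.46, so moderate differences in fold remain possible in each direction. Of all accessions, 0.0885%, 0.118% and 0.0197% passed in these comparisons.

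The rise of NM_004089 in CPM, dex minus ethanol within a replicate, was 80.8 ± 8.06 in shNS cells (SD, n = 3). It was 42.5 ± 8.12 in shG9a cells, or 52.6% of shNS, and 45.1 ± 7.59 in shGLP cells, or 55.7%. It was 69.1 ± 29.5 in shHP1γ cells, where replicate 1 rose by 103.2 CPM and the others by 52.8 and 51.2 CPM. For shG9a and shGLP against shNS the exact permutation test gave p = 0.1, the smallest value that 3 against 3 libraries allow, and for shHP1γ the exact permutation p was 0.6. The ratio of dex to ethanol averaged 11.1 ± 0.34 in shNS, 15.1 ± 3.43 in shG9a, 9.89 ± 2.40 in shGLP and 11.0 ± 2.44 in shHP1γ cells. In shG9a cells, therefore, a lower level without dex and a lower level with dex went together with a ratio that was not lower in any replicate.

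**Figure D3:**
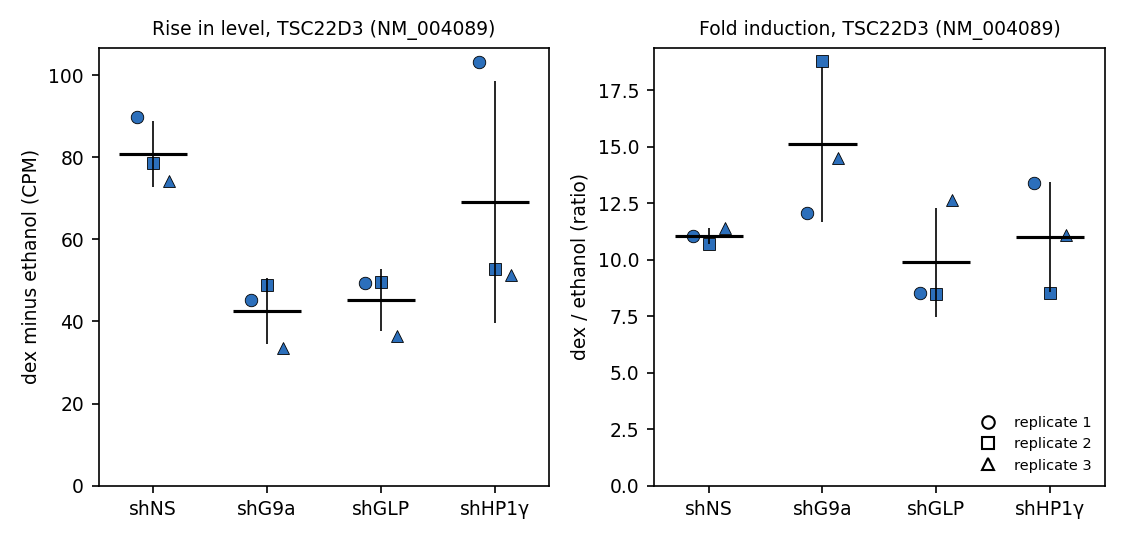
Rise in CPM (left) and ratio (right) of TSC22D3 NM_004089 between the dex and ethanol libraries of the same replicate in each line, with the mean and SD of 3 replicates as lines. The shG9a and shGLP rises lie between 33.4 and 49.6 CPM, below the shNS rises of 74.2 to 89.8 CPM, while the shG9a ratios of 12.05 to 18.8 lie above the shNS ratios of 10.7 to 11.4.

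The summed level of marker genes of other cells was higher in the shGLP line. Of 10 markers of T cells, myeloid cells, red cells and platelets, 7 had counts, CD3D and CSF1R were among those at 0, and their summed level ran from 21.6 to 35.3 CPM in the shGLP libraries and from 4.20 to 13.2 CPM in all others. Of the 3 markers tested, 1 passed for shGLP against shNS with dex and with ethanol. It was LYZ, the myeloid lysozyme gene, which held most of the sum in the shGLP libraries and was 3.22 higher on the log2 scale in shGLP than in shNS cells with dex (SE 0.32, edgeR adjusted p = 5.94e-07). The summed level of the precursor B-cell markers, mostly RAG1, was 2165 to 2909 CPM in shG9a and shGLP cells and 1171 to 1826 CPM in shNS and shHP1γ cells. Of the 6 accessions of these markers tested, RAG1 alone passed for shG9a or shGLP against shNS, higher with dex and with ethanol. Of all accessions, 8.80% and 5.77% passed with dex and 3.73% and 3.61% with ethanol. The median log2 fold change of the 6 was -0.48 in shG9a and 0.45 in shGLP cells with dex, and 0.09 and 0.32 with ethanol. The part of these marker differences in the TSC22D3 results was not tested.

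The 2 minor TSC22D3 accessions were close to 0 with ethanol and counted with dex. NM_001015881 had 2 counts over the 3 shNS ethanol libraries and 66 over the dex libraries, a ratio of 32.3 (95% interval 8.60 to 272, counting error only). It went from 0 to 31 counts in shG9a cells, at least 3.18-fold higher when 3 counts a library are taken as the floor. It went from 7 to 31 counts in shGLP cells, a ratio of 4.42 (1.91 to 11.9), and from 1 to 65 in shHP1γ cells, a ratio of 57.5 (9.96 to 2304). The ratios and the bounds over the floor rest on different bases and are not compared between lines. For both minor accessions the intervals leave out the spread between replicates and rest on dex values that the filter used. They are not tests of the dex response. The shGLP ethanol libraries held the most counts of this accession without dex.

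NM_198057 had 0 counts with ethanol and 40 with dex in shNS cells, at least 4.39-fold higher over the same floor. It had 1 and 14 counts in shG9a cells, a ratio of 12.9 (1.96 to 545), 0 and 14 in shGLP cells, at least 1.53-fold higher, and 0 and 38 in shHP1γ cells, at least 3.72-fold higher.

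As a description of values that the filter on low counts used, NM_001015881 averaged 1.88 ± 0.44 CPM in shNS, 0.85 ± 0.12 in shG9a, 1.03 ± 0.67 in shGLP and 1.87 ± 0.61 in shHP1γ cells with dex (SD, n = 3). The shGLP libraries were uneven, with 17 counts in replicate 1 and 8 and 6 in the others. NM_004089 made up 96.0% to 99.5% of the TSC22D3 counts in every group.

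TSC22D1 was counted on 2 accessions in the same libraries. Its long form NM_183422 stayed between 23.9 and 31.7 CPM in all 24 libraries (245 to 401 counts), passed in 0 of 13 comparisons of dex, depletion and their interaction, and had log2 fold changes from -0.05 to 0.13. The smallest of its 13 adjusted p-values was 0.551 (edgeR), an unadjusted p under 0.05 was reached in 0 of 13, and DESeq2 also called 0 of 13. In shNS cells it averaged 26.9 ± 1.66 CPM with ethanol and 25.9 ± 2.13 CPM with dex (SD, n = 3), and the groups overlapped. An antisense gene, TSC22D1-AS1, was listed separately (NR_038381, 30 to 65 counts per library). Whether the counting used the strand is not given in the sources used here, so reads of overlapping genes cannot be told apart.

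The short form NM_006022 was somewhat higher with dex. It measured 4.42, 3.22 and 4.08 CPM with ethanol and 5.79, 4.98 and 4.36 CPM with dex in shNS cells, where each replicate rose but the groups overlapped. In shG9a cells it measured 3.90, 3.35 and 3.88 CPM with ethanol and 5.01, 6.04 and 5.50 CPM with dex, with no overlap. The log2 fold changes were 0.36 in shNS (SE 0.18, edgeR adjusted p = 0.276), 0.57 in shG9a (SE 0.18, edgeR adjusted p = 0.063), 0.10 in shGLP (SE 0.18, edgeR adjusted p = 0.879) and 0.23 in shHP1γ cells (SE 0.17, edgeR adjusted p = 0.65). None passed in a single line in the main edgeR fit or by DESeq2, and 1 of these 4 had an unadjusted p under 0.05. The shG9a difference passed in 2 alternative fits. Over left-out samples it ran from 0.43 to 0.73, with edgeR adjusted p from 0.0191 to 0.515.

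Averaged over the 4 lines, a comparison added after seeing the data, the dex difference of NM_006022 was 0.31 on the log2 scale (SE 0.09, edgeR adjusted p = 0.0122), with 10 of 12 replicate pairs higher. In that comparison 23.8% of all accessions passed, 10.3% of them upward, so a call was common. The call was lost without replicate 2 (0.21, edgeR adjusted p = 0.249) and without replicate 3 (0.31, edgeR adjusted p = 0.099). NM_006022 took 14.02% of the TSC22D1 counts with ethanol and 17.0% with dex on average, higher in 11 of 12 pairs, and an exact permutation test of the 3 replicate means gave p = 0.25, the smallest it allows. For NM_183422 the average dex difference was -0.03, with 4 of 12 pairs higher.

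TSC22D4 NM_030935 was counted at 10 to 27 per library. In shNS cells it measured 1.65, 2.39 and 2.21 CPM with ethanol and 1.75, 1.80 and 1.21 CPM with dex, and the groups overlapped. It passed in 0 of 13 comparisons, with log2 fold changes from -0.55 to 0.64 and a smallest adjusted p of 0.349 (edgeR). An unadjusted p under 0.05 was reached in 0 of 13, and DESeq2 gave no adjusted p in 10 and no call in the other 3. Standard errors of 0.27 to 0.41 in the depletion and interaction comparisons mean that changes of the size seen for TSC22D1 NM_006022 were not detectable at this depth. TSC22D2 had counts only on the non-coding accession NR_130136, 50 in all, with no group above 0.27 CPM on average, and no fold change is given for it.

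**Figure D4:**
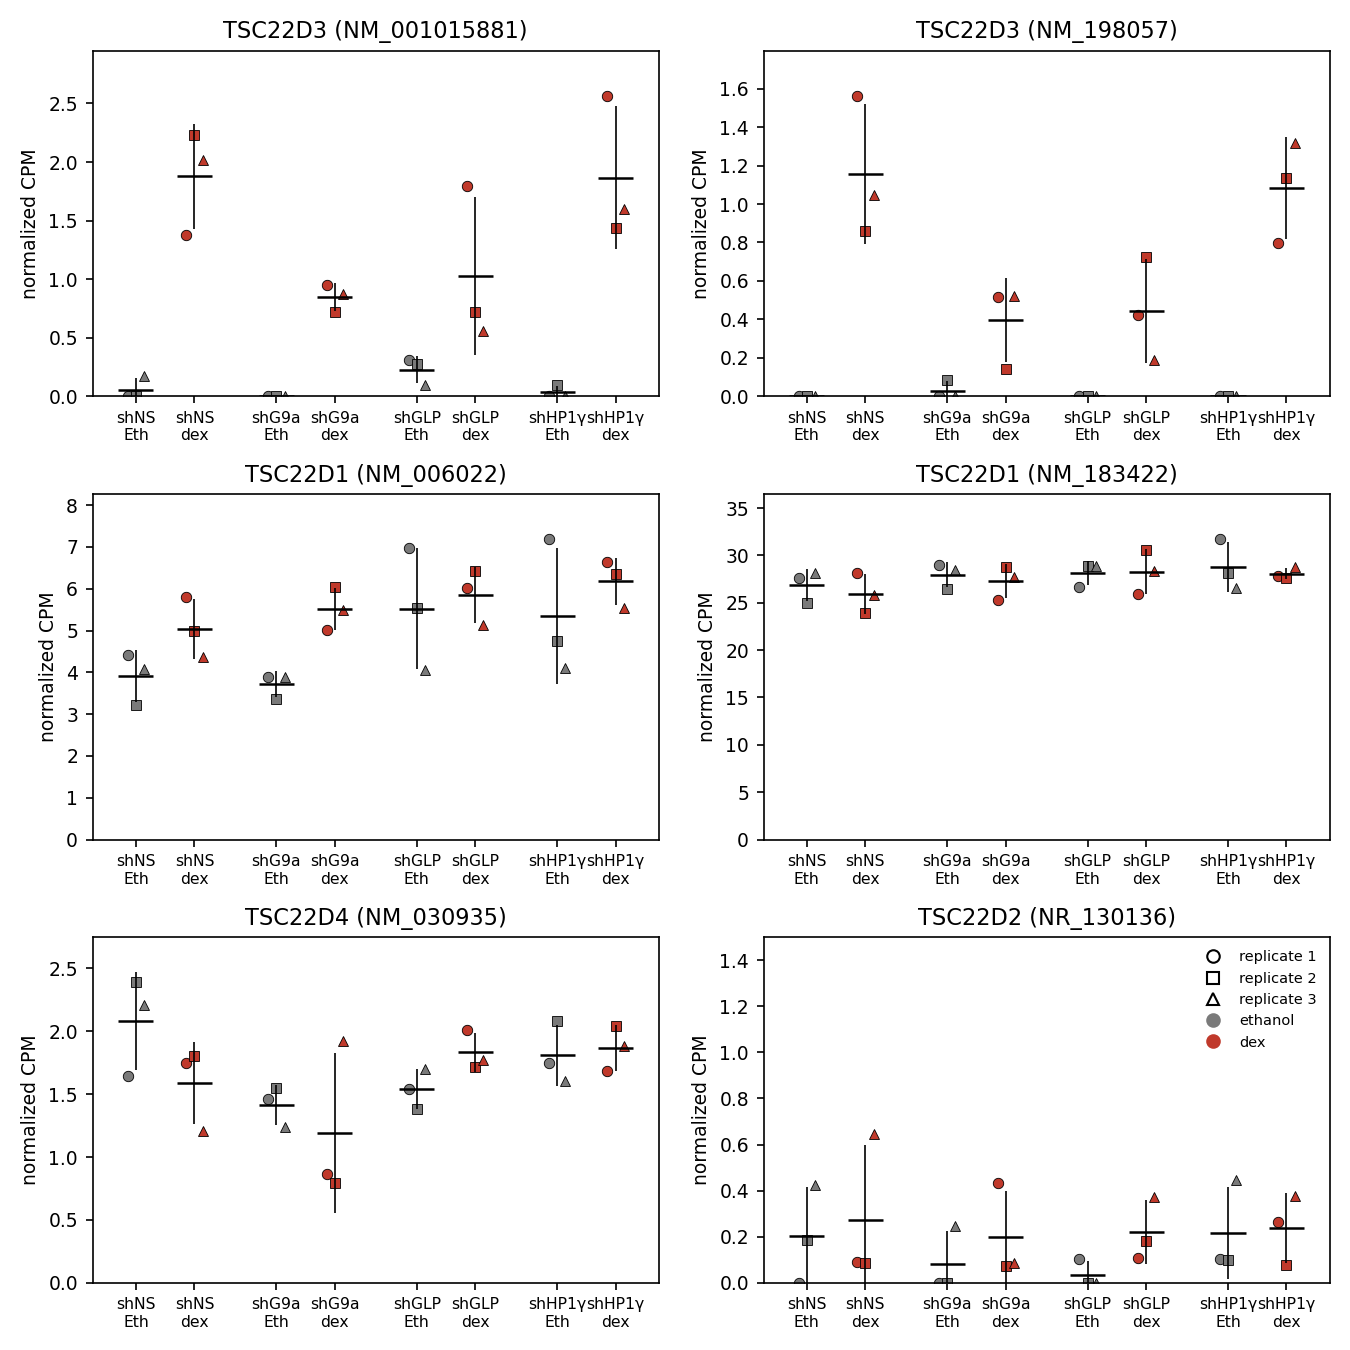
Normalized CPM of the other TSC22D accessions with counts in each library, drawn as for NM_004089, each panel on its own scale. The minor TSC22D3 accessions lie near 0 with ethanol and reach 2.57 and 1.56 CPM with dex, while TSC22D1 NM_183422 stays between 23.9 and 31.7 CPM and TSC22D2 NR_130136 does not exceed 0.65 CPM.

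Summing all accessions of a gene mostly repeats the counts of its main accession, so the sums are no separate check. NM_004089 held 96.0% to 99.5% of the TSC22D3 counts in each group, and NM_183422 most of the TSC22D1 counts. The TSC22D3 sum rose by 3.53 on the log2 scale with dex in shNS cells (SE 0.16, edgeR adjusted p = 2.86e-13) and was 0.98 lower in shG9a (SE 0.13, edgeR adjusted p = 3.99e-05) and 0.85 lower in shGLP cells with dex (SE 0.13, edgeR adjusted p = 0.000169). It was 0.25 lower in shHP1γ cells with dex (SE 0.13, edgeR adjusted p = 0.341). The TSC22D1 sum changed by 0.03 with dex in shNS cells (SE 0.09, edgeR adjusted p = 0.909). Of the 9556 genes tested, 9.63% passed for dex in shNS cells.

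TSC22D3 was set beside 14 well-known glucocorticoid-induced genes, of which 10 genes with 11 accessions were tested. The list was chosen with earlier results of these data known, so its counts are given as a description only. With dex, 9 of the 11 accessions rose in shNS cells and 7 in each depleted line, and none fell. Of all accessions, 4.49% rose in shNS, 3.26% in shG9a, 1.95% in shGLP and 2.12% in shHP1γ cells. Their median log2 fold change was 1.25 in shNS, 0.78 in shG9a, 0.95 in shGLP and 0.75 in shHP1γ cells, against medians over all accessions between -0.03 and 0.00. The largest rises in shNS cells were those of TXNIP, an inhibitor of thioredoxin (NM_001313972, 2.05, and NM_006472, 1.40), FKBP5, a co-chaperone of the receptor (NM_001145777, 1.75), and DDIT4, an inhibitor of mTORC1 signaling (1.28). NM_001313972, among the 9, averaged 0.91 CPM over all libraries, below the 1 CPM of the filter. It may have passed the filter through its dex libraries, so its rise gives no support. NM_004089 of TSC22D3 rose by 3.47 on the same log2 scale.

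With dex, 4 of the 11 accessions were lower in shG9a than in shNS cells, 5 were lower and 1 higher in shGLP cells, and 3 were lower in shHP1γ cells, against 4.43%, 2.46% and 1.54% of all accessions lower in the same 3 comparisons. Because earlier results of these libraries were known when the list was chosen, the excess over those shares gives no independent support. TXNIP NM_006472 differed from shNS by -0.78, -0.71 and -0.83 in the 3 lines, and BTG1, an antiproliferative gene, by -0.35, -0.75 and -0.49. PER1, a circadian repressor, was lower in shG9a (-0.61) and shGLP cells (-0.42). The higher accession in shGLP cells, named after its value was seen, was DUSP1, a MAP kinase phosphatase (0.33, SE 0.10, edgeR adjusted p = 0.0403). NM_004089 was lower in shG9a (-0.97) and shGLP cells (-0.83).

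With ethanol, 0 of the 11 accessions passed for shG9a against shNS by edgeR, where NM_004089 was lower by 1.39. Of all accessions, 3.73% passed in that comparison, so 0 of 11 is near the overall share. The list gave 1 lower accession for shGLP, BTG1 (-0.47), and 0 for shHP1γ, where 3.61% and 2.91% of all accessions passed. At an unadjusted p under 0.05 there were 1 for shG9a, 4 for shGLP and 2 for shHP1γ, and DESeq2 called 0, 1 and 0. The interaction of dex with G9a depletion passed for 1 of the 11, PER1 (-0.72, SE 0.11, edgeR adjusted p = 0.00344), named after its value was seen. Of all accessions, 0.0885% passed for it. Over the interactions with all 3 depletions, 21 of 33 had an unadjusted p under 0.05, edgeR called 1 and DESeq2 5. For NM_004089 that interaction was 0.41 and did not pass. The comparisons with shNS share the shNS libraries.

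**Figure D5:**
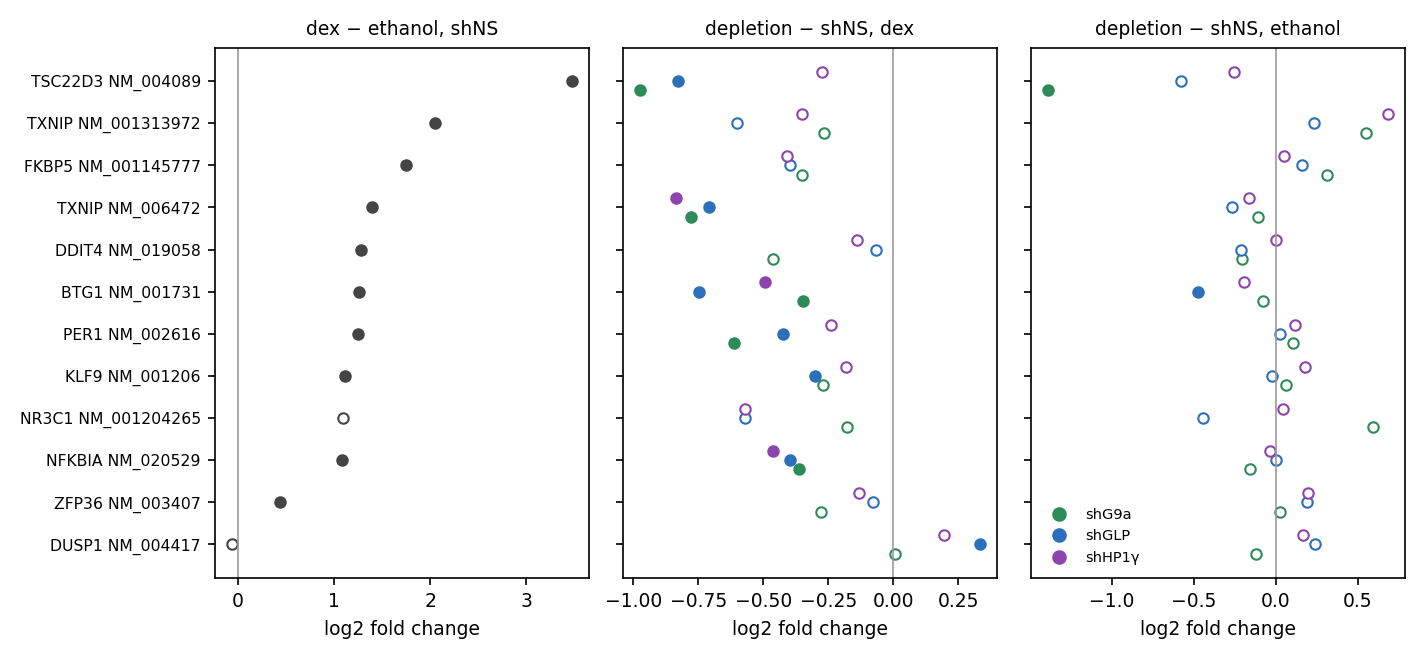
Log2 fold changes of TSC22D3 NM_004089 and of 11 accessions of well-known glucocorticoid-induced genes for dex in shNS cells (left), and for each depletion against shNS with dex (middle) and with ethanol (right); filled points have an adjusted p of at most 0.05. TSC22D3 has the highest dex value, 3.47, and with ethanol the shG9a value of -1.39 is the only filled point apart from BTG1 in shGLP cells. Of all accessions, 3.73%, 3.61% and 2.91% passed with ethanol for shG9a, shGLP and shHP1γ against shNS.

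Genes of the proteins that GILZ binds or restrains, and of their partners, moved little with dex. Of 18 genes, 10 were tested on 1 accession each, and in each line 1 rose, NFKBIA, the inhibitor that holds NF-κB in the cytoplasm and itself a glucocorticoid-induced gene on both lists. Its log2 fold changes with dex were 1.09 in shNS, 0.88 in shG9a, 0.69 in shGLP and 0.66 in shHP1γ cells. With dex it was lower in every depleted line, by 0.36, 0.40 and 0.46 on the log2 scale (edgeR adjusted p = 0.00165, 0.000611 and 0.000214). JUN, a subunit of AP-1, was higher in shG9a than in shNS cells both with dex (0.76) and with ethanol (0.52), and higher in shHP1γ cells with dex (0.44). FOXO1, a forkhead factor of B-cell precursors, was lower in shG9a cells with dex (-0.29). The median over the list for dex in shNS cells was 0.14. Of all accessions, 4.49%, 3.26%, 1.95% and 2.12% rose with dex in shNS, shG9a, shGLP and shHP1γ cells.

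Of 12 genes of the NRBP1 and WNK module, 7 genes with 8 accessions were tested, and 0 passed for dex in any line by edgeR or DESeq2, with 1 of 32 at an unadjusted p under 0.05. Of all accessions, 9.95%, 6.24%, 3.29% and 3.22% passed for dex in shNS, shG9a, shGLP and shHP1γ cells. A count of 0 of 8 is near those shares. With dex, NRBP2, the pseudokinase related to NRBP1 (0.71), and WNK1, a kinase that senses chloride and osmotic stress (0.66), were higher in shHP1γ than in shNS cells, and STK39, the SPAK kinase activated by WNKs, was lower in shHP1γ (-0.28) and shG9a cells (-0.24). The WNK1 difference lay at the threshold (edgeR adjusted p = 0.05). Of all accessions, 8.80%, 5.77% and 4.09% passed for shG9a, shGLP and shHP1γ against shNS with dex. Of 10 genes of the TGF-β pathway, 5 were tested on 1 accession each, and 0 passed by edgeR for dex in a single line or for a depletion against shNS. With 5 tested, 0 is near the overall shares, which with ethanol were 3.73%, 3.61% and 2.91% for shG9a, shGLP and shHP1γ against shNS. An unadjusted p under 0.05 was reached in 2 of 20 dex and 2 of 30 depletion comparisons, and DESeq2 called 0 and 1.

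The accessions of other genes whose pattern was most like that of NM_004089 were found by the correlation of log2(CPM + 1) over the 8 group means, among 5605 accessions of at least 5 CPM on average. They were KIF26A, a kinesin family gene (Pearson r = 0.994), PREX1, a Rac exchange factor (0.986), SMAP2, an Arf GTPase-activating protein (0.985), KLF2, a Krüppel-like factor (0.984), and CHST7, a sulfotransferase (0.984). With dex in shNS cells KLF2 rose by 3.78 on the log2 scale and the other 4 by 0.82 to 1.74. Over the 24 libraries in place of the group means, r was 0.773 for KIF26A and 0.934 to 0.971 for the other 4. The points share libraries and a dex difference, and the correlation is given as a description only.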

How the data were processed

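Total RNA of Nalm6 cells was sequenced by the authors as paired-end 75 bp reads. According to the submitters' processing notes and the study's methods, trimmed reads were mapped with HISAT2 to hg19 (GRCh37) and quantified on RefSeq records with GenomicAlignments; the counting mode, strand and RefSeq release are not given in the sources used here. The deposited table, although named for CPM, holds whole-number counts per accession and was used as counts. A second deposited table holds the authors' own log2 fold changes and adjusted p-values, which were not used; its symbols named 98.8% of the accessions together with RefSeq annotation. The design had allowed for either unit.

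The groups were taken from the sample titles. The test was run in edgeR 4.0.16 under R 4.3.3 on accessions with more than 1 CPM in at least 2 libraries (10167), upper quartile factors, a model of 8 groups plus a replicate block over all 24 libraries, the quasi-likelihood F test, and Benjamini-Hochberg adjustment over all tested accessions, with a threshold of 0.05 and no fold cutoff. SEs are the absolute log2 fold change over the square root of F, and 95% intervals use the normal quantile. The study's removal of unwanted variation was replaced by the replicate block, because the labels place the replicates of a condition on different days, without saying that a number marks the same day in every condition; 1 residual factor was an alternative. Libraries of the same number deviated together with correlations across accessions from 0.01 to 0.54, above 0.1 in 56 of 84 pairs. P-values measure the spread between these biological replicates. Exact permutation tests were 2-sided. Floors of 3 counts and count intervals (exact, 95%) cover counting error only.

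Alternatives were TMM factors, DESeq2 1.42.0, other filters, no block, only the groups compared, summed accessions and left-out replicates or libraries; the average over lines, the TSC22D1 share and the rise in CPM were added after seeing the data. The pipeline was tested on simulated data. Named genes were all members, up to 4 accessions per list with the largest changes past the threshold, the 5 most alike in pattern, and the targeted genes. The members and lists were chosen with earlier results of these data known. Promoter windows are RefSeq's, with positions from an exact match to GRCh37; TSC22D2 had no window. Python 3.11.15 and scipy 1.17.1 were used. Some marker genes of the lists are not reported here by name.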

Additional observations from a re-analysis of the deposited data

Results flagged for a closer look

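The share of TSC22D3 counts on NM_004089 was flagged because dex moved it in opposite directions between shGLP cells and the shNS and shHP1γ cells. It fell with dex in 3 of 3 replicates of shNS cells, from 99.2% to 96.7%, and of shHP1γ cells, from 99.5% to 96.0%, and rose in 3 of 3 replicates of shGLP cells, from 96.2% to 97.3%. In shG9a cells it went from 99.0% to 97.2%, with 1 of 3 replicates rising. The shGLP change exceeded the shNS change by 3.63 percentage points, and the shHP1γ change differed from the shGLP change by -4.61 points. A flag required all 3 replicates of 1 line to rise and all 3 of the other to fall. That rule fixed the exact permutation p of each difference at 0.1, the smallest that 3 against 3 replicates allow. This p therefore gives no support. These shares rest on few counts, since NM_001015881 had 7 counts in the shGLP ethanol libraries and 2 in those of shNS cells.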

How the results depend on the processing

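The dex response of TSC22D3 NM_004089 passed in all 4 lines, and its shG9a difference with dex passed, under every alternative run. With replicates or single libraries omitted in turn, the dex responses ran from 3.35 to 3.55 in shNS, 3.71 to 4.05 in shG9a, 3.06 to 3.41 in shGLP and 3.21 to 3.63 in shHP1γ cells. The shGLP difference with dex did not pass with no replicate block (-0.81, adjusted p = 0.0538) or without replicate 3 (adjusted p = 0.064), with a range of -0.94 to -0.71 over left-out samples. The shHP1γ difference with dex passed with no low-count filter (-0.36, adjusted p = 0.0363) and without replicate 1, with a range of -0.54 to -0.10. With ethanol, the shG9a difference did not pass without replicate 3 (adjusted p = 0.0609; range -1.54 to -1.29), and the shGLP difference passed with no low-count filter (-0.63, adjusted p = 0.0101) and with 1 residual factor (-0.58, adjusted p = 0.0406; range -0.76 to -0.36). The shHP1γ interaction changed sign with no replicate block (0.021) and in 8 left-out fits (range -0.26 to 0.16), and never passed. The dex difference of TSC22D1 NM_006022 in shGLP cells changed sign without 1 ethanol library (range -0.030 to 0.26), and that of NM_183422 averaged over lines with a filter of 5 CPM (0.0041) and without replicate 1 (0.0049; range -0.059 to 0.0049). In shG9a cells the dex difference of NM_006022 passed in 2 alternative fits (range 0.43 to 0.73 over left-out samples, smallest edgeR adjusted p = 0.0191). The cause of these changes was not tested.

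The replicate block changed no other call of NM_004089. It moved the number of accessions called: without it 518 passed for dex in shNS cells in place of 1012, and for shG9a, shGLP and shHP1γ against shNS with dex 320, 269 and 175 in place of 895, 587 and 416. Without replicate 3 these were 306, 157, 167 and 67, and with only the groups compared 2186, 170, 1176 and 206. Depth limits TSC22D4 and the minor TSC22D3 accessions, which had at most 29 counts in a library, and TSC22D2.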
